A study of Mus musculus with 16 samples.

Results

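The resting comparison set 4 home cage mice that drank caffeine against 4 home cage mice that drank water, 8 of the 16 RNA-Seq libraries of the series, chosen by their group labels alone. Each library came from the dorsal hippocampus of a separate male C57Bl6/J mouse. Caffeine was given in the drinking water at 0.3 g/L for 2 weeks from 8 to 9 weeks of age, the controls drank plain water, and neither group was trained. The other 8 mice (4 per drink) learned the Morris water maze for 3 days, with the tissue taken 1 h later, and are used only to show whether a resting difference was seen again. The tissue was a whole dissected region, so each value averages over its cell types, and fewer cells of a type and less RNA per cell cannot be told apart. Mice are named by group and by the number in their labels, which is water 6, 8, 11 and 20 and caffeine 2, 9, 14 and 17.

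Caffeine blocks adenosine receptors. In the hippocampus the A1 receptor lowers cyclic AMP in neurons and restrains transmitter release, whereas the 2A receptor raises cyclic AMP and is dense in the striatum and sparse in the hippocampus. Cyclic AMP and calcium act through the transcription factor CREB on immediate early genes such as Fos and Npas4, whose messages appear within minutes of neuronal activity and soon decay. The choroid plexus, an epithelium in the ventricle beside the hippocampus that secretes cerebrospinal fluid, makes the thyroid hormone carrier Ttr at very high levels, so a small piece of it in a dissected hippocampus can dominate a comparison of bulk tissue.

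Between 23078094 and 41841785 reads per resting mouse were counted on genes, and levels are given as CPM, read counts scaled to one common library size. Markers of the hippocampus were present in every mouse: the summed level of 9 dentate granule cell genes was 542 to 889 CPM and that of 14 CA1 to CA3 pyramidal cell genes 1144 to 1402 CPM, against 95.1 to 131.6 CPM for 9 thalamus genes and 79.6 to 97.7 CPM for 7 striatum genes. Library caffeine 17 lay farthest out on the first principal component (24.9% of the variance), held the largest share of mitochondrial counts (4.49%) and had the steepest fall of level with transcript length (-0.12 log2 units per log2 unit of length). These measures did not separate the groups (exact two-sided permutation tests over 4 against 4 mice, p = 0.886 for the mitochondrial share and p = 0.486 for the length slope).

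Few genes differed by much between resting caffeine and water mice, and the largest differences were mostly in choroid plexus genes. Of 17830 genes tested with edgeR's quasi-likelihood test, the calls at an adjusted p under 0.1 were 0 with a higher level (0%) and 0 with a lower level (0%), and 636 (3.57%) had an unadjusted p under 0.05, 307 of them higher (1.72%) and 329 lower (1.85%) with caffeine. DESeq2 on the same 16 libraries called 2 genes higher, Fos and the nociceptin precursor gene Pnoc, and 17 lower, of which 7 were on the choroid plexus list. The absolute log2 fold change had a median of 0.07, a 95th percentile of 0.44 and a 99th percentile of 0.82, and the median standard error was 0.10. All 4 caffeine mice lay above all 4 water mice for 175 genes (0.981%) and below them for 179 genes (1%).

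In 13379 genes the average level over all 16 libraries reached 1 on the log2 CPM scale. That average covers all 4 groups, so a gene high in 1 group alone could reach it. Of these 13379 genes, 56 were lower and 19 higher by more than 0.5 on the log2 scale. By more than 1, 21 were lower and 1 higher. The choroid plexus list held 20 of the 56 and 17 of the 21. The other 4 genes lower by more than 1 were the serotonin synthesis gene Tph2, the lipid transporter gene Abca4, the heparan sulfate sulfatase gene Sulf1 and the endocytic adaptor gene Epn3. Tph2 was high in 1 mouse alone: it stood at 1.55, 15.3, 2.45 and 1.99 CPM in water 6, 8, 11 and 20 and between 1.79 and 2.55 CPM in the 4 caffeine mice. The 1 gene higher by more than 1 was Rn7sk, the 7SK small nuclear RNA that normally has no poly(A) tail and would be lost when poly(A) RNA is selected, as it was here. Its level ran from 0.65 to 4.76 CPM in water mice and from 1.25 to 20.3 CPM in caffeine mice, with caffeine 17 the highest, and the groups overlapped (log2 fold change 1.73, standard error 0.62, adjusted p = 0.997).

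**Figure D1:**
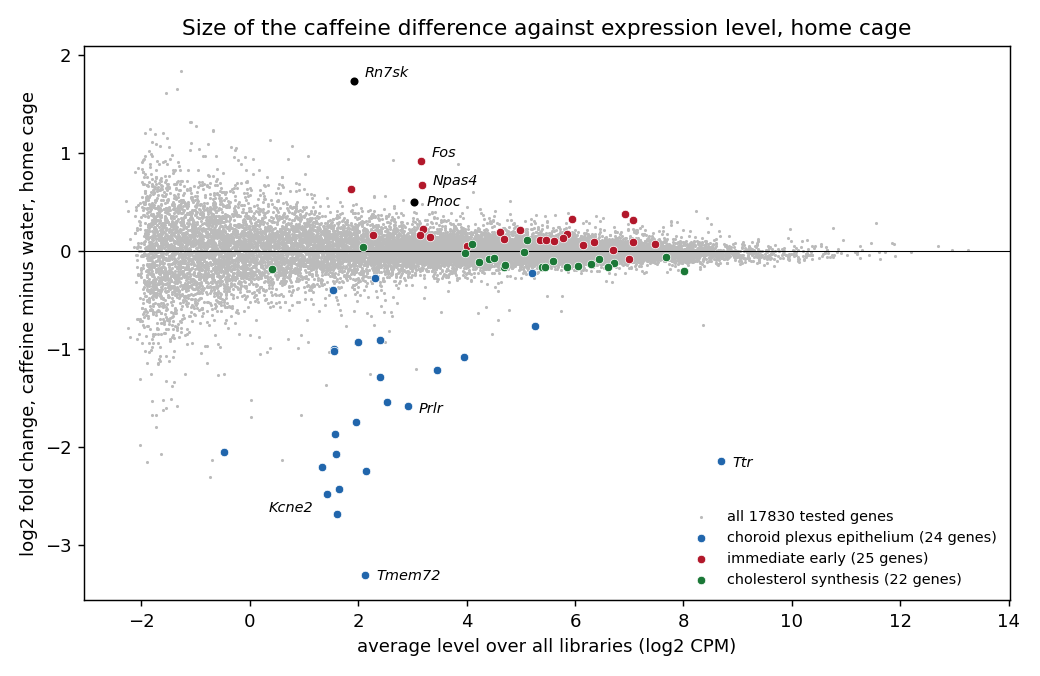
Each grey point is 1 of the 17830 tested genes, with its average level (log2 CPM, horizontal) and its log2 fold change of caffeine against water in the home cage (vertical). Most genes lie within 0.44 of 0, the 24 choroid plexus genes (blue) all lie below 0 down to Tmem72 at -3.31, 24 of 25 immediate early genes (red) lie above 0, and the 22 cholesterol synthesis genes (green) lie mostly just below 0.

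All 24 choroid plexus epithelium genes were lower in resting caffeine mice, and their median was -1.56 on the log2 scale against -0.003 over all tested genes. For comparison, 8676 of the 17830 tested genes (48.7%) were above 0. Of the 24, 22 had an unadjusted p under 0.05, against 1.85% of all tested genes in that direction, and 0 were called at an adjusted p under 0.1. The groups did not overlap for 3, against 1% of all tested genes in that direction. These 3 were Tmem72, a membrane protein gene, Prlr, the prolactin receptor, and Kcne2, a potassium channel subunit. Tmem72 and Kcne2 reached an average log2 CPM of 1 only through the resting water mice, where their means were 13.4 and 6.9 CPM. In the other groups, trained mice included, their means ran from 0.85 to 1.97 CPM. The list was drawn up with earlier results of these data known, and those results already named Tmem72, Prlr and Ttr. The summed level of the list was 392, 1330, 1074 and 2627 CPM in water 6, 8, 11 and 20 and 263, 615, 344 and 307 CPM in caffeine 2, 9, 14 and 17. The water mice thus spanned a wide range, water 20 stood highest, and water 6 lay below caffeine 9.

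The best known members were likewise highest in water 20. Ttr stood at 245, 1026, 812 and 2161 CPM in water 6, 8, 11 and 20 and at 144, 421, 207 and 188 CPM in caffeine 2, 9, 14 and 17 (log2 fold change -2.15, standard error 0.52, adjusted p = 0.444). Kcne2 stood at 2.06, 6.82, 5.86 and 12.9 CPM in the water mice and at 1.02, 1.94, 1.11 and 1.09 CPM in the caffeine mice (log2 fold change -2.48, standard error 0.47, adjusted p = 0.224). Ace, the angiotensin-converting enzyme gene, stood at 15.6, 25.6, 23.7 and 38.6 CPM against 10.1, 16, 12.3 and 11.1 CPM (log2 fold change -1.08, standard error 0.20, adjusted p = 0.224). In each of these 3 genes water 20 was highest and water 6 lowest among water mice, and caffeine 9 was highest among caffeine mice. Kl, the klotho gene, which hippocampal neurons also express, differed less (log2 fold change -0.76, standard error 0.16, adjusted p = 0.307).

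**Figure D2:**
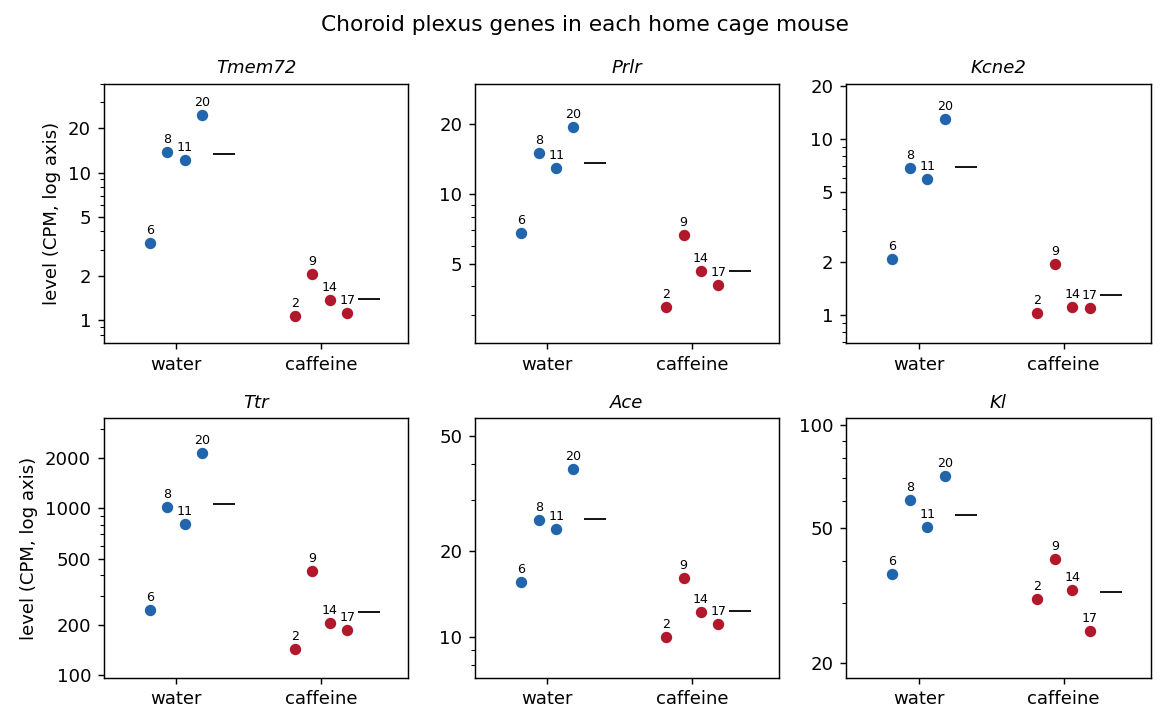
Each point is 1 home cage mouse, labelled with its number, and each panel gives the level of 1 choroid plexus gene in CPM on a log axis, with water in blue, caffeine in red and the mean of 4 mice as a bar. Water 20 is the highest mouse in all 6 panels, and caffeine 9 lies near water 6, above it for Ttr, Ace and Kl and below it for Tmem72, Prlr and Kcne2.

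The size of the choroid plexus difference rested on single mice, while its direction did not. Without water 20 the median of the 24 genes was -1.09 and 18 had an unadjusted p under 0.05, and without water 6, the water mouse with the least choroid plexus RNA, it was -1.81 and 17 of the 24 were called. All 24 were below 0 in each of the 8 fits that left out 1 mouse. A score averaged over 12 of these genes was 1.28 ± 1.06 in water mice and -0.22 ± 0.57 in caffeine mice (SD, n = 4 each, log2 units), a difference with an exact two-sided permutation p of 0.0571. Among the trained mice, which share no library with the resting ones, all 24 were again below 0 with caffeine, with a median of -0.76 and 8 at an unadjusted p under 0.05 and lower, against 377 of all tested genes (2.11%). At rest 7 of 9 ependymal genes, which line the ventricle, and 11 of 14 leptomeningeal fibroblast genes were above 0, with medians of 0.13 and 0.28, and 0 of either list had an unadjusted p under 0.05. Without caffeine 14 the leptomeningeal median was 0.06 with 8 of 14 above 0. After training all 9 ependymal genes were below 0 with a median of -0.45, and 9 of 14 leptomeningeal genes were above 0 with a median of 0.12. How much of the choroid plexus difference comes from carry-over at dissection was not tested.

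To describe the remaining genes with this RNA modelled, the choroid plexus score was added to the model as a covariate. The score itself differed between the groups, with means of 1.28 in water and -0.22 in caffeine mice. This fit can therefore separate caffeine from choroid plexus RNA only in part. The 24 genes then had a median of 0.03, with 12 below and 12 above 0. The score is built from 12 of these genes, so a median near 0 follows from the model itself. Again 0 genes were called in either direction by edgeR. Over all tested genes, 647 were higher (3.63%) and 413 lower (2.32%) at an unadjusted p under 0.05. Of the 56 genes lower by more than 0.5, 10 remained lower by more than 0.5, and of the 19 higher, 14 remained higher by that much. In all, 67 genes were lower and 224 higher by more than 0.5 with the covariate. The ependymal and leptomeningeal medians became 0.88 and 0.77 with it, with 7 of 9 and 5 of 14 at an unadjusted p under 0.05. Sulf1 moved from -1.21 to -0.09, Abca4 from -1.26 to -0.24 and Epn3 from -1.04 to 0.02 with the covariate. These 3 genes followed the choroid plexus order of mice, with water 20 highest in each (22.5, 12.1 and 8.25 CPM).

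Immediate early genes were slightly higher with caffeine at rest. Of 25 such genes, 24 were above 0, the median was 0.14 on the log2 scale, and Egr3 (-0.09) was the exception. Fos, Npas4 and Egr1 had an unadjusted p under 0.05, against 1.72% of all tested genes that were higher at that p. These and Egr2 did not overlap between the groups, against 0.981% of all tested genes in that direction. The median stayed between 0.11 and 0.20 when any 1 of the 8 mice was left out, with 20 to 24 genes above 0. With the choroid plexus score as a covariate the median was 0.02 and 14 of the 25 were above 0, and in the same fit on the 8 resting mice alone it was 0.10 with 19 above 0.

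Fos, which encodes a subunit of the AP-1 transcription factor, stood at 1.59, 3.09, 2.21 and 3.12 CPM in water 6, 8, 11 and 20 and at 6.42, 3.71, 4.68 and 4.16 CPM in caffeine 2, 9, 14 and 17. Its log2 fold change was 0.92 (standard error 0.21, unadjusted p = 0.000452, adjusted p = 0.444), and with the choroid plexus covariate it was 0.91. Npas4, an activity-dependent transcription factor gene of neurons, stood at 5.00, 5.29, 6.24 and 6.90 CPM in water mice and at 8.51, 7.32, 11.3 and 10.2 CPM in caffeine mice (log2 fold change 0.67, standard error 0.17, adjusted p = 0.578). Both genes were low in absolute terms, and every caffeine mouse was above every water mouse. Egr1, a zinc finger transcription factor gene with a high resting level, stood at 76.2, 71.3, 72.7 and 77.8 CPM against 104, 95.9, 87.2 and 83.8 CPM (log2 fold change 0.31, standard error 0.11, adjusted p = 0.997). Egr2, its rare relative, stood at 0.12, 0.54, 0.55 and 0.56 CPM against 0.78, 0.82, 0.62 and 0.64 CPM (log2 fold change 0.62, standard error 0.35, adjusted p = 0.997). Egr2 met the level required for naming only through the trained mice, where it was at 4.30 to 9.29 CPM. For Egr2 at rest, water 6 lay far below the rest, and the other 3 water mice lay close under the lowest caffeine mouse.

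Arc and Nr4a1 showed how unevenly the list moved. Arc, which encodes a dendritic cytoskeletal protein, was at 64.4 to 70.9 CPM in all water mice and at 72.2, 68.3 and 87.0 CPM in caffeine 9, 14 and 17, but at 128 CPM in caffeine 2 (log2 fold change 0.38, standard error 0.19, adjusted p = 0.997). Nr4a1, a nuclear receptor gene, was at 62.7 and 62.5 CPM in caffeine 2 and 17 and at 40.2 and 42.9 CPM in caffeine 9 and 14, within the range of the water mice. Caffeine 2 was also the highest mouse for Fos, Egr1, the postsynaptic scaffold genes Shank1 (526 CPM against 269 to 348 CPM in the other 7 mice) and Shank3, and Adora2a. Jun, Btg2, Bdnf and Homer1 had log2 fold changes of 0.003, 0.05, 0.06 and 0.06.

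**Figure D3:**
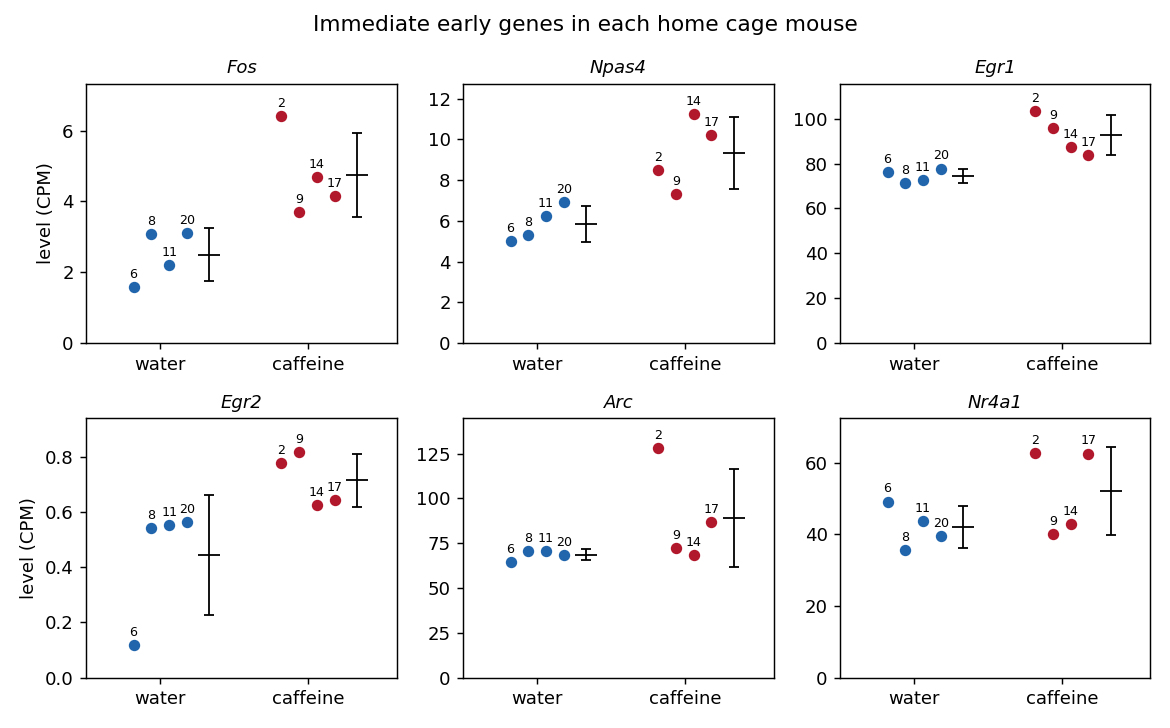
Each point is 1 home cage mouse, labelled with its number, and each panel gives the level of 1 immediate early gene in CPM on an axis from 0, with water in blue, caffeine in red and the mean ± SD of 4 mice in black. The groups do not overlap for Fos, Npas4, Egr1 and Egr2, whereas for Arc and Nr4a1 some caffeine mice lie among the water mice.

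The sequence upstream of these genes is shown because CREB binds the cyclic AMP response element, whose core 5 letters are TGACG, or CGTCA on the other strand. The lines give 250 bases before a RefSeq transcription start (build GRCm38.p6, plus strand for all 3 genes), in lower case with each match to these letters in capitals. Fos lies at chr12:85473640-85473889, with matches that begin 129 and 66 bases before the start.
Fos: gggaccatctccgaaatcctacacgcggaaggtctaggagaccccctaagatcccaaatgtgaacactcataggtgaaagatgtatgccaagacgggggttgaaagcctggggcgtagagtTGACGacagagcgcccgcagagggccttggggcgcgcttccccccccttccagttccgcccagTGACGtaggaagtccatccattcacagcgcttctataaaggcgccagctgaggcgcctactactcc
Egr2 is given at 1 of its RefSeq starts, chr10:67537619-67537868, with matches 111 and 55 bases before it.
Egr2: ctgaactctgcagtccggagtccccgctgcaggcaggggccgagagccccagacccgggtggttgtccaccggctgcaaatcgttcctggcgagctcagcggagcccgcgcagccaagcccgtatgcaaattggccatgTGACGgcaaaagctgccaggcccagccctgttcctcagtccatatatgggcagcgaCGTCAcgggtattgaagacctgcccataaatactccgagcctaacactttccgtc
Nr4a1, whose groups overlapped, is given at chr15:101266596-101266845, with 4 matches.
Nr4a1: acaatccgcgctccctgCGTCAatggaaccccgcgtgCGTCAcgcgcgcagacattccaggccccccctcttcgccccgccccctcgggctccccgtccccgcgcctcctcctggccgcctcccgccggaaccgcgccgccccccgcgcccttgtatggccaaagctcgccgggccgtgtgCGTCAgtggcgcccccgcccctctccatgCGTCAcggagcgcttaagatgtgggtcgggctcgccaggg
These 5 letters occurred on either strand in 16 of 31 promoters of 20 immediate early genes found in the RefSeq table, in 4 of 27 promoters of 19 choroid plexus genes, and in 17.8% of all 32851 promoters. A match describes the letters and is not evidence of a bound site, and the gene with most matches among the 3 shown was not the one with the largest difference.

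Other transcripts with separate groups were mostly small differences in moderately expressed genes. Pnoc, which encodes the precursor of the inhibitory neuropeptide nociceptin, stood at 8.49, 6.50, 7.37 and 7.20 CPM in water 6, 8, 11 and 20 and at 10.5, 10.6, 9.05 and 11.4 CPM in caffeine 2, 9, 14 and 17 (log2 fold change 0.50, standard error 0.10, adjusted p = 0.307, 0.39 with the choroid plexus covariate). All 4 caffeine mice were above all 4 water mice, as the choice of the gene required. Npy, another neuropeptide gene of inhibitory neurons, differed by 0.35 on the log2 scale (standard error 0.12, unadjusted p = 0.0110) and overlapping groups, and 7 of 9 interneuron genes were above 0 with a median of 0.05. That direction turned with the choroid plexus covariate, to a median of -0.16 with 1 of 9 above 0, and was -0.007 without caffeine 2 and -0.0007 without water 20. Of the other higher genes chosen in the same way, the growth regulator Myc went from 2.98 to 3.36 CPM in water mice to 3.83 to 4.49 CPM in caffeine mice (log2 fold change 0.41), and the zinc finger factor Maz from 128 to 133 CPM to 139 to 156 CPM (0.18). Plekho1 (0.30), Syce2 (0.55), the innate immune adaptor gene Tmem173 (0.33), Pank4 (0.18) and the ribosome assembly factor Grwd1 (0.19) had adjusted p from 0.578 to 0.997.

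Npr3, the clearance receptor for natriuretic peptides, was among the genes lower with caffeine outside the choroid plexus list. It stood at 25.7, 22.7, 23.4 and 24.7 CPM in water mice and at 19.0, 18.6, 18.2 and 18.9 CPM in caffeine mice (log2 fold change -0.37, standard error 0.09, adjusted p = 0.444, -0.41 with the choroid plexus covariate). Etnppl, an astrocyte gene for an enzyme that breaks down phosphoethanolamine, stood at 24.1, 18.2, 17.9 and 25.4 CPM against 11.8, 13.7, 9.85 and 17 CPM (log2 fold change -0.71, standard error 0.30, adjusted p = 0.997, -0.70 with the covariate). The log2 fold changes of Npr3 and Etnppl thus moved little with the covariate. Their unadjusted p in edgeR's test went from 0.000543 and 0.0279 to 0.00269 and 0.0919. Slc31a1, the copper importer, stood at 24.3, 28.3, 26.1 and 36.4 CPM against 19.9, 21.5, 22.6 and 22.5 CPM, again with water 20 highest, and its log2 fold change of -0.42 became -0.21 with the covariate. The unnamed transcript Gm44250 went from -0.94 to -0.18 and Emb, the gene of the transporter chaperone embigin, from -0.33 to -0.19, and Abhd2 (-0.23), Tbc1d9 (-0.23) and the metalloproteinase inhibitor Timp3 (-0.24) became -0.19, -0.16 and -0.14. Syce2, Slc31a1, Abhd2, Npr3, Emb, Tbc1d9, Timp3 and Grwd1 overlap a gene on the other strand, and since the counting's use of strand is not stated, their counts may include reads of that gene.

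Of the adenosine receptor genes, Adora2a had the largest difference and Adora1 almost none. Adora1, the A1 receptor and the most abundant of the 4 adenosine receptor genes, was at 330 ± 16.9 CPM in water mice and 333 ± 37.2 CPM in caffeine mice (SD, n = 4 each, log2 fold change 0.01, standard error 0.07). Adora2a, the 2A receptor, was at 2.26, 1.75, 2.48 and 2.79 CPM in water 6, 8, 11 and 20 and at 5.87, 2.46, 2.84 and 2.2 CPM in caffeine 2, 9, 14 and 17 (log2 fold change 0.54, standard error 0.26, adjusted p = 0.997). At rest caffeine 2 alone stood well above the water mice, and its summed level of 7 striatum genes, 83.6 CPM, was within the range of the other mice. After training Adora2a was at 1.58 to 2.13 CPM in water mice and at 2.16 to 3.44 CPM in caffeine mice, with no overlap by a narrow margin (log2 fold change 0.68, unadjusted p = 0.0187, adjusted p = 0.999). Adora2b (-0.01) and Adora3 (-0.21) had levels of about 3 and under 1 CPM. Of the 18 genes of adenosine signalling and metabolism, 12 were above 0 with a median of 0.03, and 0 had an unadjusted p under 0.05, including the adenosine kinase gene Adk (0.03) and the equilibrative transporter gene Slc29a1 (0.11). The 34 genes of cyclic AMP and CREB signalling had a median of -0.02 and the 15 of calcium stores -0.02, with 0 at an unadjusted p under 0.05 in either list.

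Among metabolic genes, those of cholesterol synthesis leaned lower. Of the 22 genes 19 were below 0, with a median of -0.12. Cyp51, the lanosterol demethylase, and Lss, lanosterol synthase, had an unadjusted p under 0.05, against 1.85% of all tested genes that were lower at that p. Cyp51 stood at 62.8, 59.7, 64.9 and 73.9 CPM in water mice and at 62.2, 55.2, 60.7 and 56.6 CPM in caffeine mice (log2 fold change -0.15, standard error 0.06, unadjusted p = 0.0187, adjusted p = 0.997). Hmgcs1, at the head of the pathway, stood at 234, 231, 294 and 328 CPM against 262, 225, 254 and 201 CPM (log2 fold change -0.21, standard error 0.11, adjusted p = 0.997). The groups overlapped for both genes, and water 20, the mouse with the most choroid plexus RNA, was highest for both. Without water 20 the median of the 22 genes was -0.05 with 7 above 0, and with the choroid plexus covariate it was -0.01 with 9 above 0. After training 19 of the 22 were also below 0, with a median of -0.10, and Cyp51 had a log2 fold change of -0.18 (unadjusted p = 0.00660, adjusted p = 0.999).

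Energy metabolism showed small and unstable medians. Of 75 nuclear genes of oxidative phosphorylation 59 were above 0 with a median of 0.05, but without caffeine 17 the median was -0.001 with 36 above 0, without water 8 it was 0.0008 with 38 above 0, and with the per-library trend of level with transcript length and GC content removed it was 0.01 with 43 above 0. With the choroid plexus covariate the median of these 75 genes was -0.03 with 29 above 0. Cytosolic ribosomal protein genes also leaned higher, with 63 of 81 above 0 and a median of 0.08. Their median was 0.03 without caffeine 17 and 0.04 without water 8, and it stayed above 0 in every fit that left out 1 mouse. It was 0.045 with the length and GC trend removed and 0.041 with the covariate, with 58 and 53 above 0. The 7 mitochondrially encoded genes that were tested had a median of 0.02. Citrate synthase, Cs, which starts the citrate cycle, was at 304 to 317 CPM in water mice and at 285 to 292 CPM in caffeine mice, with no overlap (log2 fold change -0.10, standard error 0.04, unadjusted p = 0.0354), and Cpt1a, which admits fatty acids to mitochondria, at 34 to 38.4 against 29.0 to 33.5 CPM (-0.19, standard error 0.06, unadjusted p = 0.00699). The other members of the citrate cycle and fatty acid lists had an unadjusted p above 0.05, and the medians of the 13 and 30 genes were -0.02 and -0.03. In each list 1 gene was thus lower at that p and 1 did not overlap, against 1.85% and 1% of all tested genes. The 29 genes of glycolysis and the 36 of insulin and IGF signalling had medians of -0.01 and -0.03.

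Synaptic genes had medians close to 0. Of the 20 synaptic vesicle genes 18 were below 0 with a median of -0.05 and 0 at an unadjusted p under 0.05, the largest being Sv2b at -0.14 (standard error 0.10). The 18 GABA synapse genes had a median of -0.07 with 14 below 0, and the 45 glutamate synapse genes -0.02. With the choroid plexus covariate the GABA median was -0.08 with 16 below 0. In that fit 5 of the 18 were lower at an unadjusted p under 0.05, against 2.32% of all tested genes. In the glutamate list Shank1 (0.33), Shank3 (0.26) and the NMDA receptor subunit gene Grin2c (0.19) had an unadjusted p under 0.05, all with overlapping groups. These were 3 of 45, against 1.72% of all tested genes that were higher at that p. Without caffeine 2 the median of the 20 vesicle genes was -0.08, and without caffeine 17 it was -0.03.

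Hormone and clock lists gave no group-wide separation either. All 15 glucocorticoid response genes were below 0 at rest, with a median of -0.07 and 0 at an unadjusted p under 0.05. Without water 6, 8 of the 15 were above 0 and the median was 0.01. With the choroid plexus covariate all 15 were below 0, with a median of -0.26. In that fit 2 were lower at an unadjusted p under 0.05, against 2.32% of all tested genes. On the 8 resting mice alone the median with the covariate was -0.24, with 5 of the 15 at an unadjusted p under 0.05. Sgk1, a kinase gene induced by glucocorticoids, was at -0.31 (standard error 0.16, adjusted p = 0.997). Of 19 clock genes 14 were below 0 with a median of -0.06. The activator Arntl (0.24) and the repressor Nfil3 (0.32) were higher at an unadjusted p under 0.05, against 1.72% of all tested genes. Nfil3 stood at 6.07, 7.90, 7.99 and 7.63 CPM in water mice and at 10.4, 8.83, 8.69 and 8.90 CPM in caffeine mice. Its groups did not overlap, against 0.981% of all tested genes in that direction. The stress gene Ddit3 also did not overlap (17.4 to 18.9 against 19.7 to 22.5 CPM, log2 fold change 0.20, standard error 0.09), whereas the median of 22 unfolded protein response genes was 0.06. In the interferon list, Ifitm3 went from 5.04 to 5.67 CPM to 6.61 to 8.44 CPM (0.37, standard error 0.14), and the median of the 19 genes was 0.07.

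Cell type marker lists varied among the mice of each group. Oligodendrocyte genes were above 0 in 11 of 11 cases with a median of 0.21, but 0 had an unadjusted p under 0.05, and the summed level ran from 5569 to 7941 CPM in water mice and from 5641 to 9572 CPM in caffeine mice. Caffeine 9 was the highest of the 8, and without it the median was 0.09. Mbp, a myelin protein gene, was at 2780 ± 530 CPM with water and 3370 ± 708 CPM with caffeine (SD, n = 4 each, log2 fold change 0.28, standard error 0.22). After training the same 11 genes were all below 0 with a median of -0.34. Medians were 0.01 for astrocyte, 0.07 for microglia, 0.02 for endothelial and 0.14 for mural cell genes. Blood genes were below 0 in 5 of 5 cases with a median of -0.16, and their summed level of 71.4 to 126 CPM in caffeine mice lay within the 65.5 to 138 CPM of water mice. Without water 11 the median of the blood genes was 0.01.

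**Figure D4:**
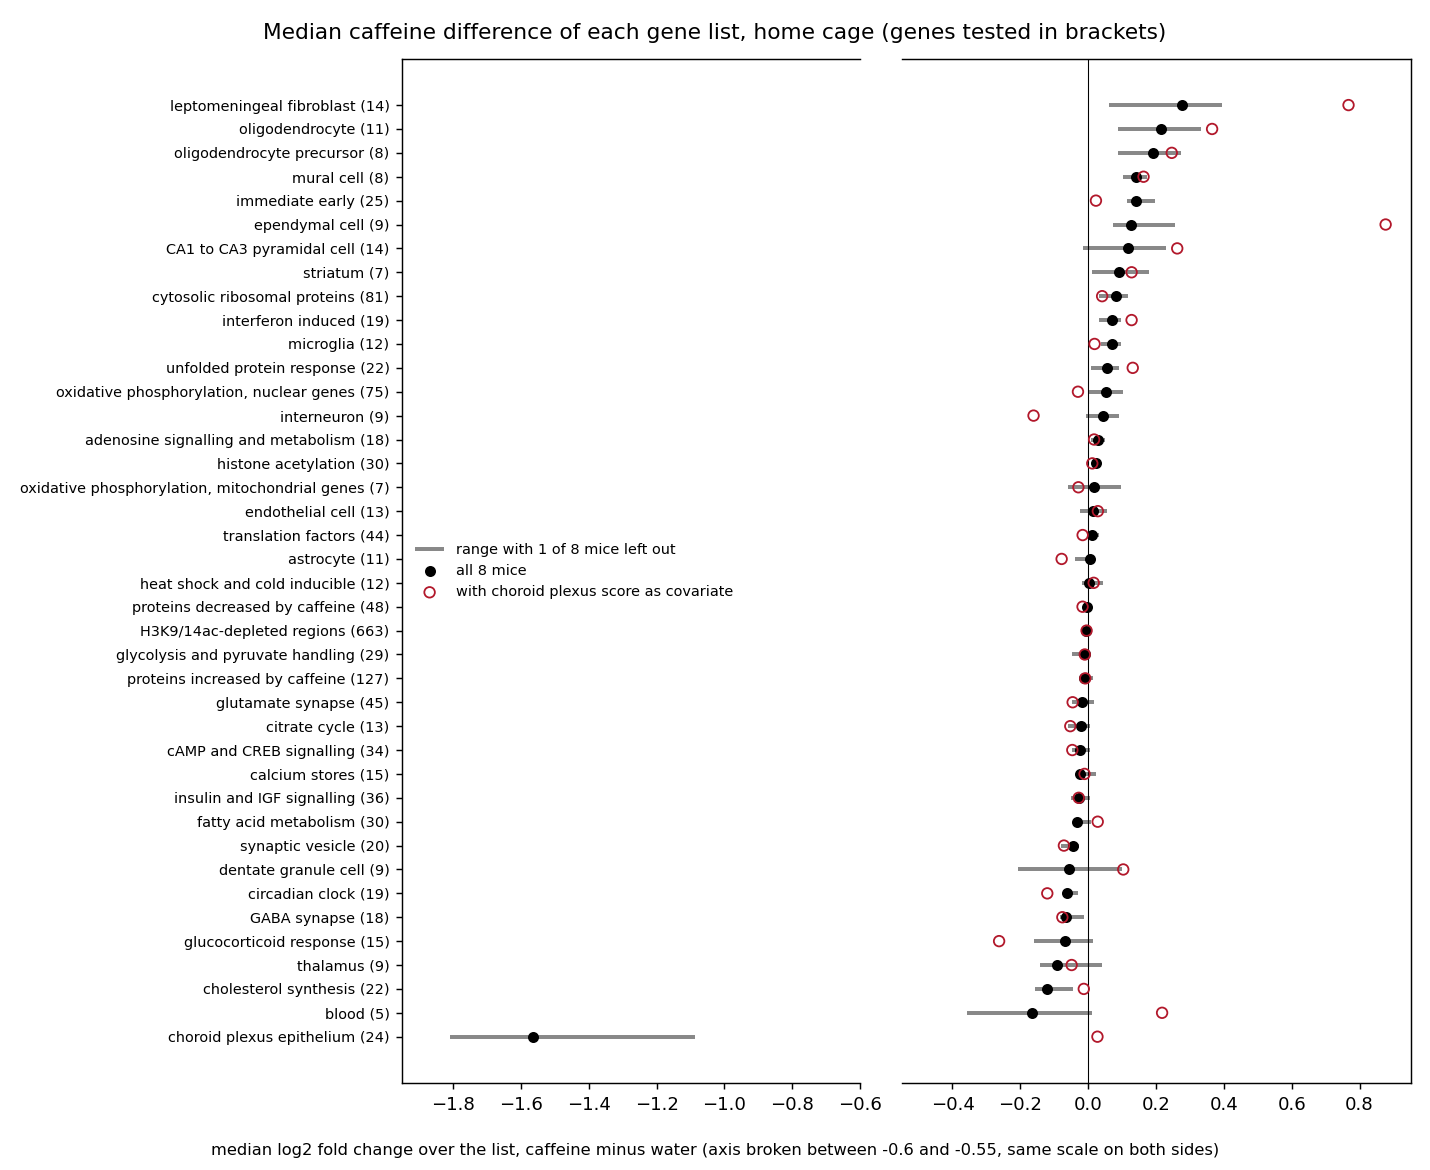
For each gene list (number of tested genes in brackets) the black point is the median log2 fold change of caffeine against water in the home cage, the grey line its range over the 8 fits that left out 1 mouse, and the red circle the median with the choroid plexus score as a covariate; the axis is broken, with 1 scale on both sides. Choroid plexus genes lie apart at -1.56 and move to 0.03 with the covariate, which is built from 12 of them. Every other list has a median between -0.16 and 0.28.

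Of the lists from the study's other assays of resting mice, 3 were examined, and the H3K27ac list was not used here. Of 663 tested genes of regions that lost H3K9/14 acetylation with caffeine, 319 were above and 344 below 0, with a median of -0.01. The 127 genes of proteins that were increased had a median of -0.01 and the 48 of decreased proteins -0.004. The lowest of the 48 was the choroid plexus gene Ttr at -2.15. Of the 48, 2 were lower and 2 higher at an unadjusted p under 0.05, against 1.85% and 1.72% of all tested genes. Of 26 genes that the study names, Nadk2, which makes mitochondrial NADP, was at 54.6, 55.8, 55.5 and 49.0 CPM in water mice and at 49.0, 49.1, 51.3 and 45.8 CPM in caffeine mice, so that the groups overlapped through water 20 alone (log2 fold change -0.14, standard error 0.06, unadjusted p = 0.0226, adjusted p = 0.997). Spice1 (0.10), Irs1 (0.07), Gsk3b (-0.09), Synpo (-0.04), Crtc1 (-0.02), Ndufa3 (0.14) and Mpc1 (-0.07) had an unadjusted p above 0.05. Shank3 was at 168, 194, 208 and 181 CPM in water mice and at 286, 212, 209 and 189 CPM in caffeine mice, and without caffeine 2 its log2 fold change was 0.12.

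Some resting differences were seen again after training and others were not. Of the genes whose resting groups did not overlap, 51.7% had the same sign in the trained mice, against 53.9% of all tested genes. After training edgeR called 0 genes at an adjusted p under 0.1, and 700 (3.93%) had an unadjusted p under 0.05, of which 323 (1.81%) were higher with caffeine. Of the 25 immediate early genes 18 were above 0 in the trained mice with a median of 0.10, and 4 were higher at an unadjusted p under 0.05. Egr1 was at 0.31 at rest and 0.25 after training on the log2 scale. Fos went from 0.92 to 0.10 and Npas4 from 0.67 to 0.14. Etnppl went from -0.71 to 0.71, with trained water mice at 20.4 to 24.1 CPM and trained caffeine mice at 52.6, 58.1, 18.7 and 20.7 CPM, so that 2 of the 4 caffeine mice were high. Npr3 went from -0.37 to 0.11. Fos, Npas4, Etnppl and Npr3 were chosen for their resting values, and a smaller value in other mice can follow from that choice alone, so no p is given for them. Over all genes the test of the difference between the caffeine effects called 0 of 17830 (0%), and 648 (3.63%) had an unadjusted p under 0.05.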

How the data were processed

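Poly(A) RNA of 1 mouse per library was sequenced as single-end reads from stranded libraries. The authors aligned reads to the mm10 assembly with STAR and Bowtie 2, kept unique alignments and deposited raw counts per Ensembl gene from HTSeq-count 0.6.1p1 in union mode. The strand setting of the counting is not given in the sources used here, so counts of overlapping genes are uncertain. Gene symbols were found for 35247 of 35328 identifiers in GENCODE M21. Of these genes 17830 passed filterByExpr over all 16 libraries, totals were scaled by TMM, and 1 model with 4 groups was tested with edgeR 4.0.16 (quasi-likelihood, Benjamini-Hochberg adjustment, threshold 0.1) in R 4.3.3. Levels are CPM on the scaled totals. Reads carried no molecular identifiers.

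The choroid plexus score was the mean centred log2 CPM (prior count 2) over 12 genes. Single measures were compared by exact permutation tests, which can reach p = 0.0286 at the least. Named genes were list members, genes that the study names, adenosine receptor genes, Tmem72, Prlr and Ttr, and, among genes with separate groups and an average log2 CPM of at least 1, the 10 with the smallest p and the 5 with the largest fold change in each direction. Members and lists were chosen with earlier results of these data known. Alternatives used DESeq2 1.42.0, other filters, covariates and libraries left out. Scripts were tested on simulated data.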

Additional observations from a re-analysis of the deposited data

Results flagged for a closer look

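For 52 named genes and 4 measures of the libraries, each group of 4 home cage mice was examined for a mouse far from the other 3, by the gap to the nearest mouse over the range of the group against Dixon's 95% critical value. Of 112 groups 6 were past it, and chance alone flags about 1 in 20 groups. Egr2, whose groups did not overlap, was at 0.119 CPM in water 6 and at 0.542 to 0.564 CPM in the other water mice. Kcne2 was at 1.94 CPM in caffeine 9 and at 1.02 to 1.11 CPM in the other caffeine mice. Spice1, a centriole gene, was at 15.5 CPM in water 11 against 14.01 to 14.24 CPM in the other water mice, and at 17.5 CPM in caffeine 9 against 14.8 to 15.0 CPM in the other caffeine mice. Itpr3, an inositol trisphosphate receptor gene, was at 4.38 CPM in water 11 against 4.97 to 5.04 CPM in the other water mice. Dusp3, a phosphatase gene, was at 208.6 CPM in caffeine 2 against 187.1 to 188.7 CPM in the other caffeine mice.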

How the results depend on the processing

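With 4 mice per group, edgeR called 0 genes in the home cage comparison, and this count changed with the test, the filter and 1 mouse. It was 19 with DESeq2 on 16 libraries, 4 with DESeq2 on the 8 home cage libraries, 34 when every gene with at least 1 count in total was kept, 1 (Tmem72) with robust empirical Bayes, and from 0 to 33 when 1 mouse was left out, 33 being without water 6. The other alternatives, which were DESeq2 size factors, at least 10 counts in every library, a threshold of 0.05, edgeR on 8 libraries, the length and GC trend removed and the choroid plexus covariate on 16 libraries or, chosen after seeing the data, on 8, each gave 0. For the difference between the caffeine effects after training and at rest the count was 0, and it was 6 with DESeq2, 9 with at least 1 count in total, and 0 to 1 without 1 mouse, the 1 being without caffeine 14. The causes were not tested.

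Of the 52 genes named one by one under the rule, some close to 0 changed sign. With the choroid plexus covariate on 16 and 8 libraries the log2 fold change was -0.077 and -0.064 for Ndufa3, 0.064 and 0.0078 for Acsl4, 0.0045 and 0.048 for Igf2r, -0.28 and -0.43 for Gna14, 0.036 and 0.078 for Crtc1, and 0.12 and 0.14 for Tanc1, and it was 0.0078 on 8 libraries for Ide. With the length and GC trend removed Acsl4 was at 0.0045. When 1 mouse was left out the values ran from -0.14 to 0.0009 for Gsk3b, -0.12 to 0.069 for Mlh3, -0.17 to 0.057 for Mpc1, -0.11 to 0.059 for Acsl4, -0.071 to 0.015 for Ide, -0.094 to 0.013 for Igf2r, -0.097 to 0.29 for Itpr3, -0.093 to 0.44 for Gna14, -0.079 to 0.0077 for Synpo, -0.078 to 0.025 for Crtc1, -0.0697 to 0.059 for Pitpnm3, -0.15 to 0.044 for Tanc1, -0.0403 to 0.086 for Adora1 and -0.16 to 0.094 for Adora2b. The other values of these 52 genes kept their sign. List members outside the 52 were not counted here, and some choroid plexus genes among them turned sign with the covariate, such as Folr1 from -1.75 to 0.10. No paired analysis was possible because the groups share no replicate numbers. Intervals and tests at 23078094 reads or more per mouse cover counting error and the spread between these mice, and changes of genes at or under 1 CPM are the least precise.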

Other observations

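Some genes with separate groups were below the level required for naming and were chosen after their values were seen. Th, which encodes the enzyme that starts dopamine and noradrenaline synthesis, was at 1.27, 1.5, 0.97 and 0.75 CPM in water 6, 8, 11 and 20 and at 0.41, 0.26, 0.51 and 0.61 CPM in caffeine 2, 9, 14 and 17 (log2 fold change -1.27, standard error 0.28, adjusted p = 0.337). After training its log2 fold change was 0.76. Gpr84, a receptor gene of microglia and other myeloid cells, was at 0.87, 0.73, 0.66 and 0.54 CPM in water mice and at 1.29, 1.55, 1.08 and 1.48 CPM in caffeine mice (log2 fold change 0.95, standard error 0.20, adjusted p = 0.307). Every caffeine mouse was below every water mouse for Th and above every water mouse for Gpr84.

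Htr2c, a serotonin receptor gene that the choroid plexus and neurons both express, was at 36.2, 29.3, 29.7 and 42.9 CPM in water mice and at 19.4, 22.1, 19.0 and 30.6 CPM in caffeine mice, with caffeine 17 above 2 water mice. Its log2 fold change of -0.60 (standard error 0.15) was -0.55 with the choroid plexus covariate, unlike that of Kl, which went from -0.76 to -0.23.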
